A study of Arabidopsis thaliana with 4 samples.

Results

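The 8 genes described here encode enzymes of flavonoid and anthocyanin synthesis in Arabidopsis thaliana: TT4, TT5, F3H, TT7, FLS1, DFR, LDOX and BAN. They were found by locus code or symbol among the 23932 features of the deposited expression table, and all 8 passed the filter on low values that left 22646 features. Of the 8 rows, 7 carry the locus code of the named enzyme. The row FLS1 carries no locus code, and its object name is FLAGELLIN-SENSITIVE 1, while its annotation lists flavonol synthase activity beside detection of bacteria. The reference gives the symbol FLS1 to a single gene, AT5G08640 (flavonol synthase), and the row is described under that name with this doubt.

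RNA was sequenced from germinating seedlings in 4 samples, 1 per group, so no group has replicates. ZFP3ox ABA was a ZFP3 overexpressing genotype (ZFP3 is a zinc finger protein), grown on 5 µM estradiol plus ABA (abscisic acid, a germination inhibiting hormone) at 2.5 µM and harvested at 84 h, and wild-type ABA was Col-0 on the same medium at the same hour. ZFP3ox control and wild-type control were the same genotypes on 5 µM estradiol alone, harvested at 36 h; the hours were set to give a like stage of the emerging root. All seedlings therefore received estradiol, and ABA cannot be told apart from the later harvest in any comparison of ABA with control. Each sample has 2 columns of values. Column set 1 holds RPKM (reads divided by exon length and by library size). Column set 2 holds RPM (reads scaled to a fixed total, with no division by gene length), from which whole reads were recovered, 2.53 to 3.46 Mreads (M, mega) per sample over the listed features. The depth behind set 1 was not resolved for these genes. Nothing states whether the sets came from separate seedlings, so both columns of a sample count as 1 sample. Where intervals are given they are 95% intervals of the read count and cover counting error only. ZFP3 was high in both ZFP3ox samples, with 444 reads in ZFP3ox ABA against 11 in wild-type ABA, and 387 in the ZFP3ox control against 16 in the wild-type control (set 2). In these bulk samples, fewer cells of a type and less RNA per cell cannot be told apart.

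Flavonoids are made from phenylpropanoid precursors along a branched route. Chalcone synthase (TT4), chalcone isomerase (TT5) and flavanone 3-hydroxylase (F3H) form the early steps that all branches share. Flavonoid 3′-hydroxylase (TT7), also counted as early, adds a hydroxyl group that only some of the products carry. Flavonol synthase (FLS1) leads to flavonols, colourless compounds that absorb ultraviolet light. Dihydroflavonol reductase (DFR) and leucoanthocyanidin dioxygenase (LDOX) lead to the anthocyanin pigments, and anthocyanidin reductase (BAN) leads to the tannins that colour the seed coat. In Arabidopsis the early genes are known as targets of MYB11, MYB12 and MYB111, and the late genes as targets of complexes of MYB proteins, bHLH proteins such as TT8, and TTG1.

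The 250 bases before the annotated start are shown for 4 of the genes. TT4 and F3H lay on opposite sides of 0 with ABA in both genotypes and both column sets, and LDOX and BAN were the genes past 2-fold in a comparison. The sequences were read from the reference genome TAIR10.1 by the position of each gene. The files name no build, but 271 of 271 feature IDs that carry a position overlapped a gene of the same name in TAIR10.1. Capitals mark ACGT, the core of the G-box and of ABA response elements, which the LDOX window does not hold. The windows are chr5:4488226-4488475 on the plus strand for TT4, chr3:19024942-19025191 on the plus strand for F3H, chr4:12006210-12006459 on the minus strand for LDOX and chr1:22792804-22793053 on the minus strand for BAN, each written 5′ to 3′.
TT4: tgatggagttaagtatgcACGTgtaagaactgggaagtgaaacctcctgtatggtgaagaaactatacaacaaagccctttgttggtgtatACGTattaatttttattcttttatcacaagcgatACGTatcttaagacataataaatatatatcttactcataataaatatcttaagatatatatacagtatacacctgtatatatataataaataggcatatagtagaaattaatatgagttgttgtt
F3H: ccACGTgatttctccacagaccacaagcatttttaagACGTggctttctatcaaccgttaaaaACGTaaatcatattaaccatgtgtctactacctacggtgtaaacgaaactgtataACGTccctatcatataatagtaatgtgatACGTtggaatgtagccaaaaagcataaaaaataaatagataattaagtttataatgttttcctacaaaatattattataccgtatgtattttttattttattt
LDOX: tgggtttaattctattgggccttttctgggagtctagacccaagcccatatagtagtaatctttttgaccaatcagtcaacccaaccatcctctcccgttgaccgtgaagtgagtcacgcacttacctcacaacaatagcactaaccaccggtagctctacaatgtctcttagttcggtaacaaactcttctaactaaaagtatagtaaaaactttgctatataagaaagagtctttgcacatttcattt
BAN: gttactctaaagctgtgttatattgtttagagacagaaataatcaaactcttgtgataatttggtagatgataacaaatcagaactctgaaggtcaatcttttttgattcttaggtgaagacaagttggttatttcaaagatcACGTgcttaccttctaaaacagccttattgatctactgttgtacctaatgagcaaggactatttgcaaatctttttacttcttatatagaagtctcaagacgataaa

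The G-box CACGTG, searched on both strands, was in 4 of the 8 windows, those of TT4, F3H, DFR and BAN, and in 6.49% of 27443 coding genes' windows of the same length. The ACGT core, which every G-box holds, was in the same 4 members and in 44.1% of all windows. The E-box CANNTG, which also covers the G-box, was in 6 of 8 and in 55.3% of all. The ABA response element letters ACGTGTC or ACGTGGC were in F3H alone among the 8, with ACGTGGC from -213 to -207 relative to the start, and in 6.39% of all windows. The AC element was searched as ACCTAAC, then in its variant form ACCTACC, then in its variant form ACCAACC, and was in 0 of 8 windows and in 6.12% of all. These letters are a description of the windows and not bound sites.

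TT4, the entry enzyme, had the highest RPKM of the 8 in 3 of the 4 samples of set 1, and the highest RPM per kilobase in 4 of 4 of set 2. In set 1 it had 50.62 RPKM in ZFP3ox ABA, 36.51 in wild-type ABA, 82.81 in the ZFP3ox control and 77.00 in wild-type control. In set 2 it had 267, 186, 345 and 330 reads in the same order, which is 26.92, 17.13, 36.33 and 23.44 RPM. In each set both ABA samples lay below the control of their own genotype, and wild-type ABA was the lowest of the 4. Its ABA value was 0.611 times (set 1) and 0.741 times (set 2, interval 0.629 to 0.872) the control value in ZFP3ox. In wild type the folds were 0.474 and 0.731 (interval 0.607 to 0.877). ZFP3ox stood above wild type with ABA by 1.39-fold and 1.57-fold (interval 1.30 to 1.91), and without ABA by 1.08-fold and 1.55-fold (interval 1.33 to 1.81). TT4 made up 22.7%, 21.5%, 38.3% and 40.9% of the summed RPKM of the 8 genes in the same order of samples, and 42.9%, 32.1%, 55.0% and 46.8% of their summed RPM per kilobase in set 2.

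F3H, which adds a hydroxyl group to the flavanone made by TT5, ran the other way with ABA. In set 1 it had 44.01 RPKM in ZFP3ox ABA, 59.33 in wild-type ABA, 33.54 in the ZFP3ox control and 40.98 in wild-type control. The reads of set 2 were 110, 146, 44 and 84, or 11.09, 13.44, 4.63 and 5.97 RPM. Both ABA samples lay above both control samples in each set, and wild type above ZFP3ox in each treatment. With ABA the value was 1.31-fold and 2.39-fold (interval 1.67 to 3.48) the control in ZFP3ox, and 1.45-fold and 2.25-fold (interval 1.71 to 2.98) in wild type. ZFP3ox had 0.742 and 0.825 times (interval 0.638 to 1.06) the wild-type value with ABA, and 0.818 and 0.777 times (interval 0.527 to 1.13) without it. In wild-type ABA, F3H had the highest RPKM of the 8 genes.

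**Figure D1:**
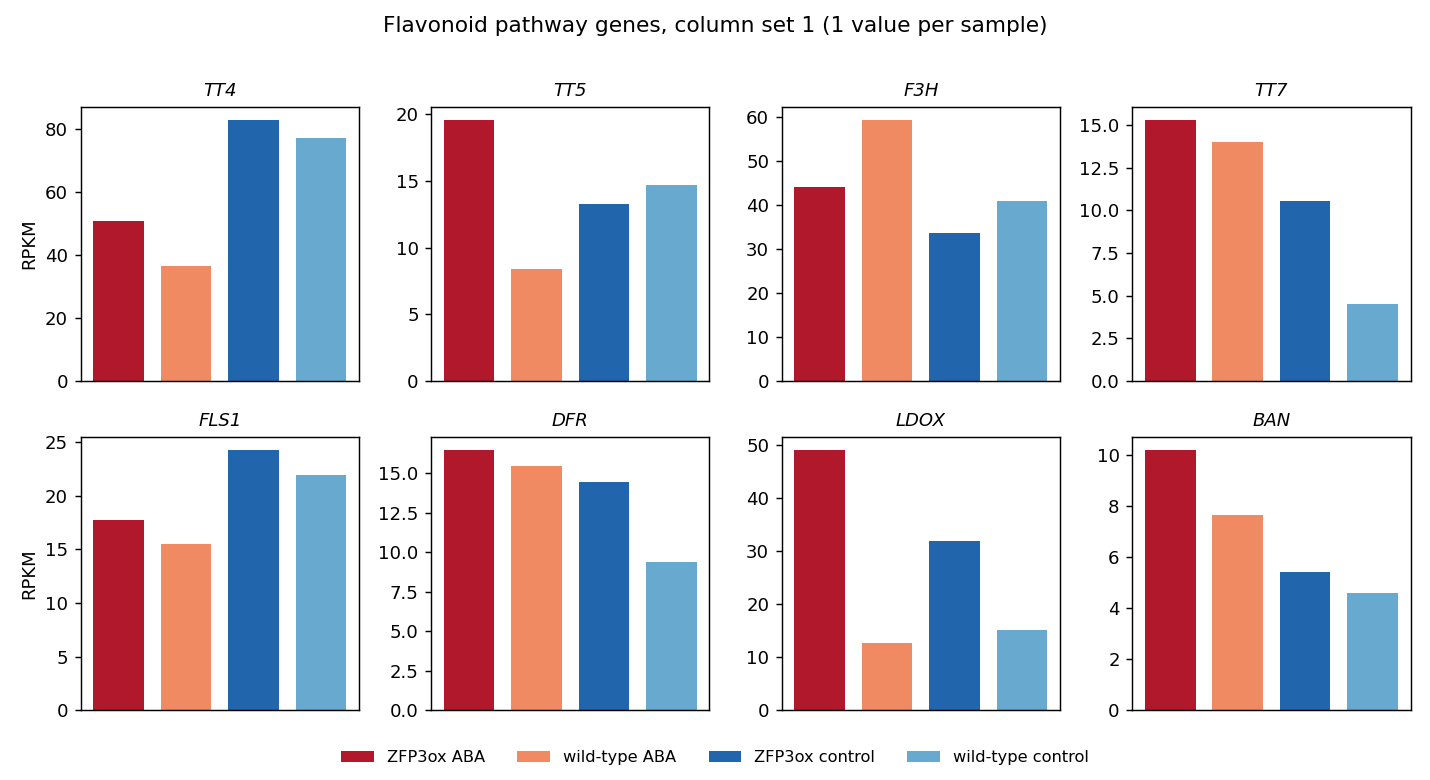
RPKM (linear axis from 0, 1 panel per gene with its own scale) of the 8 genes in column set 1; each bar is 1 sample, with no error bar because no group has replicates. TT4 is lower and F3H higher in the ABA samples, and LDOX is highest in ZFP3ox ABA at 49.18 RPKM.

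TT5, chalcone isomerase, had few reads. In set 1 it had 19.57 RPKM in ZFP3ox ABA, 8.41 in wild-type ABA, 13.24 in the ZFP3ox control and 14.71 in wild-type control, and in set 2 it had 22, 14, 13 and 23 reads. These reads are 2.22, 1.29, 1.37 and 1.63 RPM, so ZFP3ox ABA was highest and wild-type ABA lowest in each set. With ABA, ZFP3ox had 2.33-fold and 1.72-fold (interval 0.842 to 3.64) the wild-type value, and without ABA 0.900 and 0.838 times (interval 0.390 to 1.73). All intervals of TT5 in set 2 included 1, so at this depth no difference was detectable there.

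TT7, the flavonoid 3′-hydroxylase that adds the second hydroxyl group of cyanidin and quercetin, was lowest in wild-type control in each set. In set 1 it had 15.29 RPKM in ZFP3ox ABA, 13.98 in wild-type ABA, 10.52 in the ZFP3ox control and 4.53 in wild-type control. In set 2 it had 53, 71, 53 and 63 reads, or 5.34, 6.54, 5.58 and 4.47 RPM. The set 1 spread of 3.38-fold between the highest and the lowest sample stood against 1.46-fold in set 2. With ABA against control, TT7 was at 1.45-fold and 0.957 times (interval 0.642 to 1.43) in ZFP3ox, while in wild type it was at 3.09-fold and 1.46-fold (interval 1.03 to 2.08).

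The low end of set 1 differed between the samples in the same order as TT7. The lowest 5% of all features reached 7.31 RPKM in ZFP3ox ABA, 5.68 in wild-type ABA, 5.04 in the ZFP3ox control and 3.40 in wild-type control. DFR and BAN followed that order in set 1 too. The part of this floor in the values of TT7, DFR and BAN was not tested.

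FLS1, the flavonol branch enzyme (with the doubt on its row), was higher without ABA than with it in set 1. It had 17.77 RPKM in ZFP3ox ABA, 15.50 in wild-type ABA, 24.28 in the ZFP3ox control and 21.91 in wild-type control. In set 2 it had 22, 30, 42 and 39 reads, or 2.22, 2.76, 4.42 and 2.77 RPM. In ZFP3ox the ABA value was 0.732 and 0.501 times (interval 0.285 to 0.859) the control value, and in wild type 0.707 and 0.997 times (interval 0.598 to 1.65).

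DFR, the first step toward anthocyanins, was highest in different samples in the 2 sets. In set 1 it had 16.48 RPKM in ZFP3ox ABA, 15.43 in wild-type ABA, 14.46 in the ZFP3ox control and 9.35 in wild-type control. In set 2 it had 34, 33, 60 and 32 reads, or 3.43, 3.04, 6.32 and 2.27 RPM, so that ZFP3ox control stood apart from the other 3 samples. Without ABA, ZFP3ox was above wild type in both sets, at 1.55-fold and 2.78-fold (interval 1.78 to 4.41). With ABA the folds were 1.07 and 1.13 (interval 0.678 to 1.88). In ZFP3ox with ABA against control the sets differed in direction, at 1.14-fold and 0.542 times (interval 0.345 to 0.840). The genotype ratio with ABA was 0.691 and 0.406 times (interval 0.213 to 0.772) that without ABA.

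LDOX, which makes the coloured anthocyanidins, was the member furthest apart between the genotypes with ABA. In set 1 it had 49.18 RPKM in ZFP3ox ABA, 12.69 in wild-type ABA, 32.03 in the ZFP3ox control and 15.16 in wild-type control. In set 2 it had 31, 16, 33 and 56 reads, or 3.13, 1.47, 3.48 and 3.98 RPM. In set 1 both ZFP3ox samples lay above both wild-type samples. In set 2 wild-type ABA was low and the other 3 samples lay within each other's intervals. With ABA, ZFP3ox had 3.88-fold and 2.12-fold (interval 1.13 to 4.15) the wild-type value, while without ABA the sets differed in direction (2.11-fold and 0.874 times, interval 0.550 to 1.37). With ABA against control the folds in ZFP3ox were 1.54 and 0.899 (interval 0.533 to 1.51), and those in wild type 0.837 and 0.370 (interval 0.198 to 0.655). The genotype ratio of LDOX with ABA was 1.83-fold and 2.43-fold (interval 1.16 to 5.09) that without ABA.

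BAN, known in Arabidopsis for its activity in the young seed coat, was among the weakest genes of set 1, at 10.22 RPKM in ZFP3ox ABA, 7.67 in wild-type ABA, 5.44 in the ZFP3ox control and 4.59 in wild-type control. Between 6.25% and 17.4% of features were at or below these values. In set 2 it had 43, 47, 12 and 37 reads, or 4.33, 4.33, 1.26 and 2.63 RPM. The ABA samples were above the control samples in each set. In ZFP3ox the ABA value was 1.88-fold and 3.43-fold (interval 1.78 to 7.15) the control, and in wild type 1.67-fold and 1.65-fold (interval 1.05 to 2.61). Without ABA, ZFP3ox stood at 1.19-fold and 0.481 times (interval 0.228 to 0.943) wild type, so the sets differed in direction. Marker genes of the seed coat that are not flavonoid genes (MUM4, MUM2, PER36 and SBT1.7) summed to 116.39, 145, 169.82 and 189.45 RPKM in the same order of samples, a sum that was lower with ABA in set 1, while in wild type PER36 was higher (6.70 against 5.81 RPKM) and MUM2 nearly equal (14.58 against 14.59 RPKM). In set 2 they summed to 39.22, 72.93, 138.92 and 59.02 RPM, of which SBT1.7 alone gave 20.26, 49.91, 117.64 and 30.61 RPM. In wild type in set 2, MUM4 (11.42 against 16.62 RPM) and PER36 (2.3 against 2.84 RPM) were lower with ABA, and MUM2 (9.3 against 8.95 RPM) higher. The part of these markers in the values of BAN was not tested.

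**Figure D2:**
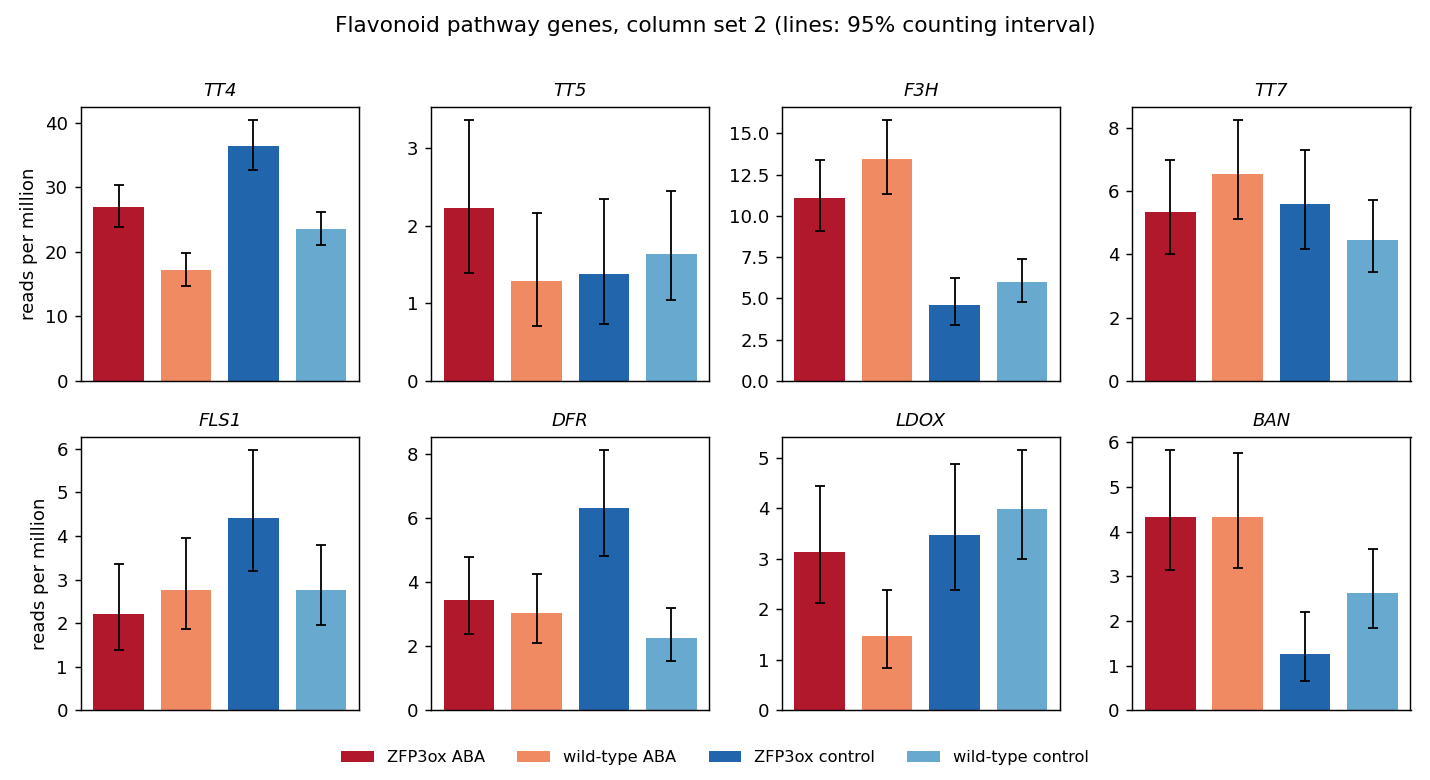
RPM (linear axis from 0, 1 panel per gene with its own scale) of the 8 genes in column set 2; each bar is 1 sample and the error bars are 95% counting intervals. TT4 and F3H have intervals that separate ABA from control in both genotypes, while the 4 intervals of TT5 overlap.

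For a common measure over both sets, log2(value + 1) ratios were taken within a set and averaged, and a gene was counted when this mean was 2-fold or more. Across features, the log2 values of the 2 sets of a sample correlated only at r of 0.511 to 0.636. In ZFP3ox against wild type with ABA, 1 of the 8 genes was past 2-fold, LDOX (log2 ratio 1.31, with 1.87 and 0.74 in the sets), where 2.7% of all features were higher and 2.03% lower. Without ABA 0 of 8 were past it, beside 0.954% of all features higher and 1.58% lower. The nearest was DFR (0.87). In ABA against control in ZFP3ox, 1 of 8 was past it, BAN (1.02, with 0.80 and 1.24), beside 4.55% higher and 2.23% lower of all. In ABA against control in wild type 0 of 8 were, beside 4.65% higher and 2.86% lower, with TT7 (0.95), F3H (0.79) and TT4 (-0.74) furthest out. On this measure 0 of the 8 were past 2-fold in both sets at once in any of these comparisons. Of all features, 0.631% were higher and 0.503% lower in both sets in ZFP3ox against wild type with ABA, and 0.137% and 0.181% without ABA. In ABA against control the shares were 1.02% and 0.729% in ZFP3ox, and 1.46% and 1.37% in wild type. The count of 0 depends on the added 1. Without it LDOX was past 2-fold in each set in ZFP3ox against wild type with ABA (3.88-fold and 2.12-fold). Median-of-ratios scaling put BAN below 2-fold, so that 0 of 8 passed in ABA against control in ZFP3ox. It moved the median of all features there to 0.02, against 0.21 unscaled, and reversed the direction of 0 of the 8 genes in any comparison. The difference between the genotype ratios with ABA and without was past 4-fold for 0 of 8 genes, beside 0.336% of all features higher and 0.185% lower (0.102% and 0.0486% in both sets). The sets gave this difference the same sign for 6 of 8 genes and for 52.1% of all features. With 1 sample per group these counts have no replicate check.

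**Figure D3:**
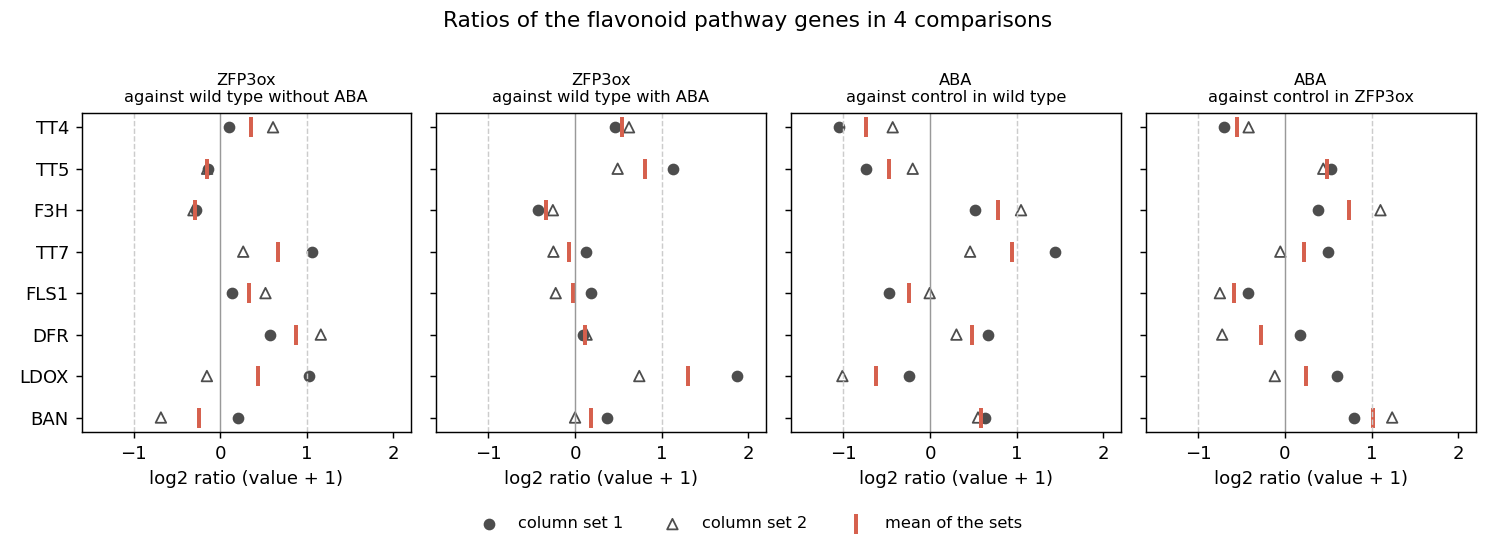
log2 ratios of (value + 1) for the 8 genes in the 4 comparisons; filled circles are column set 1, open triangles column set 2 and red bars their mean, with dashed lines at 2-fold. In ABA against control in wild type both sets of all 8 genes lie on the same side of 0, 4 genes above and 4 below, with FLS1 in set 2 next to 0.

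The 8 genes did not lie on one side in any comparison. In ABA against control in wild type, F3H, TT7, DFR and BAN were above 0 in both sets, and TT4, TT5, FLS1 and LDOX below it, so the sets gave the same sign for 8 of 8 genes, although FLS1 in set 2 was at 0 within rounding. Over all features they did so for 53%. In ZFP3ox 3 of the genes were above 0 in both sets with ABA (TT5, F3H and BAN), 2 below (TT4 and FLS1) and 3 differed between the sets, where 62.3% of all features had the same sign. The medians of the 8 log2 ratios were 0.23 in ZFP3ox and 0.12 in wild type, against 0.21 and 0.15 for all features. In ZFP3ox against wild type with ABA, TT4, TT5, DFR and LDOX were above 0 in both sets and F3H below, with 53.6% of all features of the same sign. Without ABA, TT4, TT7, FLS1 and DFR were above 0 in both sets and TT5 and F3H below, beside 41.5% of all. The medians of the 8 were 0.15 with ABA and 0.35 without, against 0.05 and 0.01 for all features, but without ABA the sets alone gave 0.17 and 0.06, beside 0.21 and -0.20 for all features.

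Relative to the median of all features, TT4 stayed below 0 with ABA in both genotypes and both sets (-0.92 and -0.60 in ZFP3ox, -1.37 and -0.40 in wild type). F3H (0.16 and 0.92 in ZFP3ox, 0.21 and 1.08 in wild type) and BAN (0.58 and 1.06 in ZFP3ox, 0.32 and 0.58 in wild type) stayed above it. The comparisons share samples, so their values for 1 gene are not independent of each other.

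The effects averaged over genotype or treatment were tested on all 22646 features with limma, on an additive model whose single residual degree of freedom is the departure from additivity. For the averaged ABA effect, 0 of the 8 genes passed the adjusted p of 0.05, beside 0.287% of all features higher and 0.362% lower, while 3 had an unadjusted p under 0.05, as did 19.1% of all features. These were BAN (log2 0.81, standard error 0.24, adjusted p = 0.171 by limma), F3H (0.76, standard error 0.23, adjusted p = 0.171 by limma) and TT4 (-0.65, standard error 0.23, adjusted p = 0.214 by limma), each of 1 sign in 4 of 4 pairs of columns. With edgeR on the recovered reads of set 2, 0 of 8 passed and 2 had an unadjusted p under 0.05, F3H and BAN, as did 8.92% of all features. For the averaged genotype effect 0 of 8 passed by limma, beside 0.00442% of all features higher and 0.00442% lower, and 1 had an unadjusted p under 0.05, as did 7.29% of all features. This was LDOX (0.87, standard error 0.28, adjusted p = 0.684 by limma), which was below 0 in 1 of its 4 pairs of columns. With edgeR 0 of 8 passed and 1 had an unadjusted p under 0.05, DFR, as did 6.94% of all features. A p above the threshold does not show that the genes were alike.

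None of the 8 genes is listed in the authors' 4 deposited tables of selected genes, which hold 543 genes lower and 803 higher with ABA and 167 lower and 225 higher in ZFP3ox. Most of the 23932 features are likewise in none of them, so this absence says little about the 8 genes.

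The members' profiles over the 8 columns also differed. Each was centred within its column set on the log2(value + 1) scale and set against that of TT4 by the root mean square distance. The 5 nearest of all features were AT1G06360 (0.07), AT5G64400 (0.11), ATOZI1 (0.12), PGLCT (0.13), a plastid glucose transporter gene, and AT1G14210 (0.13). Of the other members, FLS1 was the nearest at 0.27 (place 244), then TT5 at 0.43 (place 2620), DFR at 0.52 (place 6324) and LDOX at 0.60 (place 10187). TT7 (0.77), F3H (0.81) and BAN (0.82) were farther from TT4 than 80.6%, 85.8% and 86.0% of all features.

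The steps before and after the 8 enzymes were described from lists of known pathway genes. Of 8 phenylpropanoid entry genes, which supply the precursors, 2 were at least 2-fold lower with ABA in wild type and 0 higher, both past it in each set, beside 2.86% of all features lower (1.37% in both sets) and 4.65% higher. PAL1, the first enzyme of the route, had 28.03 RPKM in ZFP3ox ABA, 17.68 in wild-type ABA, 56.56 in the ZFP3ox control and 100.9 in wild-type control, with 92, 58, 156 and 301 reads in set 2. 4CL1, a 4-coumarate:CoA ligase gene, was also lower with ABA in wild type (log2 ratios -1.62 and -1.49), and in ZFP3ox against wild type with ABA it was the 1 of 8 past 2-fold (0.20 and 1.88), beside 2.7% of all features higher. C4H, cinnamate 4-hydroxylase, was the 1 of 8 past it with ABA in ZFP3ox (-1.35 and -0.86), beside 2.23% of all features lower. The list's median with ABA in wild type was -0.80, beside 0.15 for all features.

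Of 13 decoration genes, which attach sugars, acyl and methyl groups, 3 were at least 2-fold higher in ZFP3ox ABA than in wild-type ABA, each in both sets, and 0 lower, beside 2.7% of all features higher (0.631% in both sets) and 2.03% lower. UGT78D2, a flavonoid glucosyltransferase gene that acts on flavonols and anthocyanidins, had 73.46 RPKM in ZFP3ox ABA, 33.28 in wild-type ABA, 44.14 in the ZFP3ox control and 32.88 in wild-type control. Its reads in set 2 were 124, 39, 68 and 89, or 12.5, 3.59, 7.16 and 6.32 RPM, so ZFP3ox ABA was highest in each set. 5MAT, an anthocyanin malonyltransferase gene, had log2 ratios of 1.15 and 1.28 there, and OMT1, a methyltransferase gene, 1.04 and 1.36. OMT1 was also lower with ABA than without, at -1.47 and -1.90 in ZFP3ox and -2.51 and -2.71 in wild type. RHM1, a rhamnose synthesis gene, was lower with ABA in ZFP3ox (-1.59 and -0.61), and UGT78D3 higher (1.40 and 0.63), so 1 of 13 was higher and 2 lower there, beside 4.55% and 2.23% of all features. The list's median in ZFP3ox against wild type with ABA was 0.66, beside 0.05 for all features.

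Of 5 measured related gene copies, 1 was past 2-fold in ZFP3ox against wild type with ABA, beside 2.7% of all features higher. This was FLS3 in the mean of the sets, through set 1 (3.11, against 0.14 in set 2). It had 82.85 RPKM in ZFP3ox ABA against 8.71 in wild-type ABA, but 11 against 10 reads in set 2. Of the 6 transport and oxidation genes, 0 were past 2-fold in any of the 4 comparisons. The shares of all features in these were small too, at 0.954% to 4.65% higher and 1.58% to 2.86% lower.

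Of 19 regulators 17 were measured and 16 passed the filter, and 1 of these was past 2-fold, TT16, a MADS-box gene of the seed coat, higher with ABA in ZFP3ox (1.12 and 1.20), beside 4.55% of all features higher. The bHLH gene TT8 had log2 ratios of 1.11 and 0.35 in ZFP3ox against wild type with ABA and 0.78 and -0.05 without. MYB12 had -0.76 and 0.34 with ABA and -0.15 and -1.29 without, and MYB111 0.50 and 0.04 with ABA and 1.20 and -0.02 without. TTG1 lay between -0.01 and 0.46 in both. MYBL2, a repressor of anthocyanin synthesis, had 9, 16, 8 and 21 reads in set 2, or 0.91, 1.47, 0.84 and 1.49 RPM. In set 1 it had 6.92, 5.71, 6.08 and 3.96 RPKM in the same order of samples. The sets differed in direction for ZFP3ox against wild type, at log2 ratios of 0.24 and -0.37 with ABA and 0.51 and -0.44 without. HY5, a bZIP factor of light-grown development that binds the TT4 promoter, had 20, 43, 23 and 71 reads in the order ZFP3ox ABA, wild-type ABA, ZFP3ox control and wild-type control. Its log2 ratios of ZFP3ox to wild type were -0.31 and -0.72 with ABA and -0.67 and -0.82 without.

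**Figure D4:**
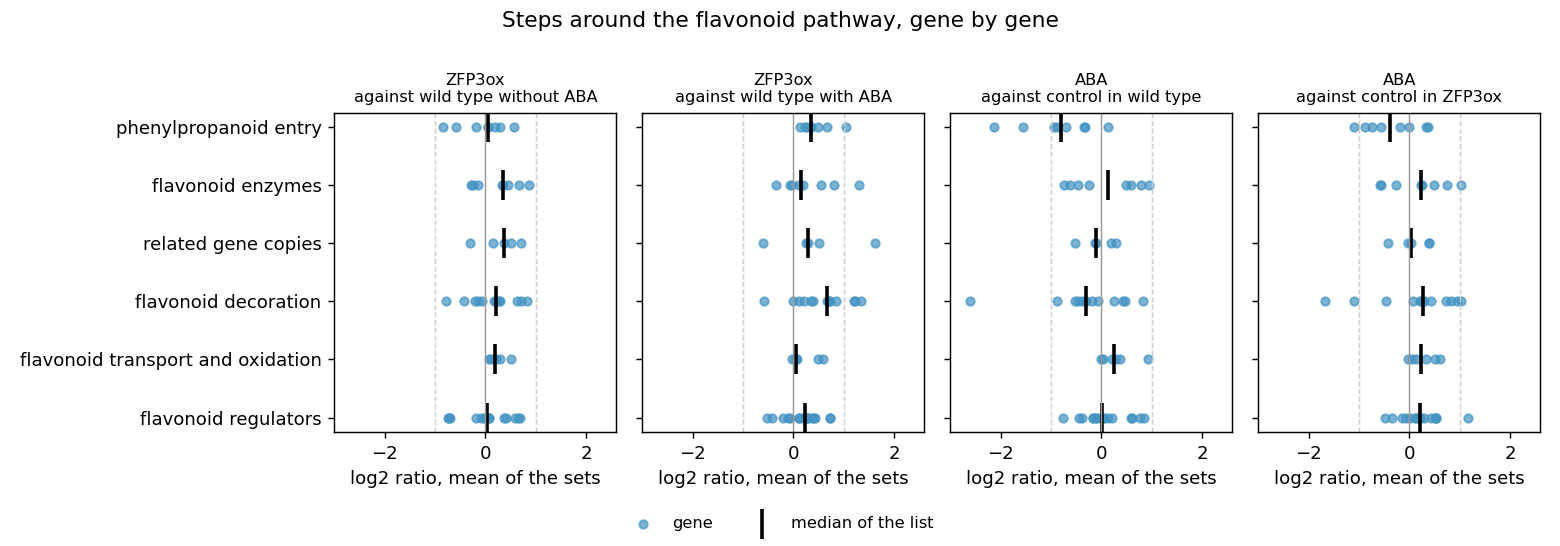
log2 ratios (mean of both column sets) of each measured gene that passed the filter, by pathway list (rows), in the 4 comparisons; points are genes, black bars list medians and dashed lines 2-fold. Decoration genes have a median of 0.66 in ZFP3ox against wild type with ABA, and phenylpropanoid entry genes one of -0.80 in ABA against control in wild type.

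Markers of tissue and stage differed between the same samples. The 4 green cotyledon markers (CAB1, CAB2, LHCB2.1 and RBCS1A) summed to 1521.41 RPKM in ZFP3ox ABA, 195.5 in wild-type ABA, 2861.59 in the ZFP3ox control and 1938.11 in wild-type control. The 5 embryo reserve markers (CRA1, CRC, OLEO1, OLEO2 and LEA4-5) summed to 812.21, 2551.59, 128.55 and 130.41 RPKM. In set 2 the green markers summed to 431.36, 106.08, 1423.1 and 1178.15 RPM and the reserve markers to 398.09, 458.73, 22.43 and 25.64 RPM. OLEO2 alone gave 310.39 RPM of the sum in ZFP3ox ABA and 98.43 RPM in wild-type ABA, and the other 4 reserve markers summed to 87.7, 360.3, 18.43 and 22.59 RPM. The 3 measured endosperm markers (MAN7, ZOU and CYP707A1) summed to 65.89, 97.67, 43.55 and 40.29 RPKM, and the 3 root markers (EXPA7, RHD6 and PRP3) to 42.06, 35.27, 48.59 and 64.34. In set 2 the endosperm markers summed to 17.64, 25.04, 10.75 and 12.43 RPM. Of these, ZOU was lower with ABA in set 2, at 3.23 against 4.95 RPM in ZFP3ox and 2.85 against 4.62 RPM in wild type. MAN7 and CYP707A1 were higher with ABA in both genotypes in set 2. The root markers summed to 5.24, 20.81, 4.96 and 6.89 RPM there, so wild-type ABA was highest in set 2 and lowest in set 1. In ZFP3ox against wild type with ABA, 3 of 4 green markers were past 2-fold higher (median 3.62) and 4 of 5 reserve markers lower (median -1.88). Of all features, 2.7% were higher and 2.03% lower there. In ABA against control in ZFP3ox, 4 of 4 green markers were past 2-fold lower and 4 of 5 reserve markers higher. The counts in wild type were 4 of 4 and 5 of 5. Of all features, 2.23% were lower and 4.55% higher in ZFP3ox, and 2.86% and 4.65% in wild type. The endosperm gene MAN7 was past 2-fold higher with ABA in both genotypes, and the seed coat gene SBT1.7 lower with ABA in ZFP3ox. The root gene PRP3 was past 2-fold lower in ZFP3ox against wild type with ABA, and the root gene EXPA7 lower with ABA in wild type. Without ABA 0 of these markers were past 2-fold between the genotypes, beside 0.954% of all features higher and 1.58% lower. None of these markers was at 0 in any sample, but no listed feature had fewer than 1 read in set 2. Their values above 0 therefore do not show that a tissue was present. In both sets TT4 and the sum of the green markers were lowest in wild-type ABA, and F3H and the sum of the reserve markers highest there. Single markers differed from these sums in set 2, where RBCS1A was lowest and OLEO2 highest in ZFP3ox ABA. Their part in the flavonoid values was not tested.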

How the data were processed

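RNA was measured in 4 samples, 1 per group. The authors deposited 1 expression table with 8 value columns, 2 per sample. Libraries were depleted of ribosomal RNA and read on a SOLiD instrument, per the labels' protocols. The authors' deposited settings name colour-space matching with strand, use of reads with several matches, and gene-level values. For the program, its version and the genome build, the sources used here give nothing. The authors' column set 1 is RPKM. The settings name RPKM for the whole table, but in the deposited set 2 columns at least 99.99% of values lay within 0.1 of whole multiples of 1 step per column, whatever the gene's length. Set 2 was therefore read as RPM and turned back into reads, scaled by the authors to totals of 9.50 to 14.1 Mreads. Its log2 values correlated with log2 exon length at r of 0.547 to 0.605 across genes, against 0.135 to 0.185 in set 1. A single feature, AT3G43990, held 18.1% of the summed set 2 values in wild-type control and up to 28.7% in the ZFP3ox control. The authors' other tables hold signed fold changes (a score) of selected genes.

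A feature was kept where 1 sample had at least 1 in both columns. Ratios were log2(value + 1), which understates ratios of low genes, taken within a set and averaged, a measure chosen when both sets were taken for RPKM and kept. The test of averaged effects was limma 3.58.1, run in R 4.3.3, as an additive model (4 samples, prior of 6.7 degrees of freedom, Benjamini-Hochberg over 22646 features), with p-values that measure only the departure from additivity in these samples. edgeR 4.0.16 was run on the recovered reads, which was added after seeing the data, and called 102 features for ABA and 1 for genotype. Both were tested on simulated data, drawn only from features with more reads on average than TT5, FLS1, DFR, LDOX and BAN had. The simulation therefore does not cover such low counts. Counting intervals are exact Poisson, ratios use exact binomial intervals, and differences of ratios a normal approximation. The 8 genes, lists and rules were chosen with earlier results of these data known. The genes named are the 8 members, list genes past 2-fold in the mean of the sets, chosen regulators, the marker genes of each tissue list and the 5 profiles nearest to TT4.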

Additional observations from a re-analysis of the deposited data

Results flagged for a closer look

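TT5 had opposite signs in the genotypes with ABA in both column sets: against control, its log2 ratios were 0.53 and 0.44 in ZFP3ox and -0.74 and -0.20 in wild type. Its ratio of ZFP3ox to wild type was also opposite in sign, at 1.13 and 0.49 with ABA and -0.14 and -0.15 without. The 2 genotype ratios differed by 0.96 on the log2 scale as the mean of the sets. It rests on 22, 14, 13 and 23 reads in set 2 (ZFP3ox ABA, wild-type ABA, ZFP3ox control and wild-type control), where the interval of the ratio of ratios ran from 0.790 to 5.33. The difference was not tested, since each group is 1 sample. TT5 was the 1 of 8 genes with such opposite signs. The share of all features with such signs was not computed, so this count has no background beside it.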

How the results depend on the processing

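The counts of genes past 2-fold depended on the settings, since they lie between 0 and 2 of 8. In ZFP3ox against wild type without ABA the count was 0, and it was 1 with a pseudocount of 0.1 (DFR), 2 in column set 1 alone (TT7 and LDOX) and 1 in set 2 alone (DFR). With ABA the count of 1 (LDOX) was 0 with a pseudocount of 5, 2 in set 1 alone (TT5 and LDOX) and 0 in set 2 alone. In ABA against control in ZFP3ox the count of 1 (BAN) was 0 with a pseudocount of 5, 0 with median-of-ratios scaling, 0 in set 1 alone and 2 in set 2 alone (F3H and BAN). In wild type the count of 0 was 1 with a pseudocount of 0.1 (TT7), 2 in set 1 alone (TT4 lower, TT7 higher) and 2 in set 2 alone (F3H higher, LDOX lower). The cause was not tested. The share of all features past 2-fold under each alternative was not computed, so these counts have no background beside them. Leaving out the filter on low values could not change these counts, since all 8 genes passed it. Leaving out FLS1 could not change them either, since FLS1 was past 2-fold in none of the comparisons. The single-gene ratios under the alternatives were set against the distance from the centre to a bound of the counting interval on the log2 scale. Of these ratios, 236 differed from the main value by less than this distance and 4 by more, all of TT4 in a single set. The ratios without the filter equal the main value by construction. The rule is wide for genes with few reads, so a change of sign can count as less. Without ABA, LDOX had log2 ratios of 1.03 in set 1 and -0.15 in set 2, and both counted as less. LDOX and BAN kept their sign where they were past 2-fold. For the averaged effects 0 of 8 genes passed in any of the 10 settings, with a lowest adjusted p of 0.106 for ABA (TT4, limma) and 0.258 for genotype (LDOX, limma). Over all features limma called 147 for ABA, but 2 with a pseudocount of 5, 6 in set 2 alone, 661 with median-of-ratios scaling and 238 with the 8 columns as libraries and the column set as a block. For genotype it called 2, but 0 with a pseudocount of 5 (1667 unadjusted), 6 with median-of-ratios scaling and 1 in either set alone, with limma-trend or with the 8 columns as libraries. edgeR called 102 and 1. Depth limits TT5, with 13 to 23 reads in set 2. The labels carry no replicate numbers that pair samples across groups, so the block used was the column set.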

Other observations

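MYB90, an anthocyanin MYB gene, was weak in column set 1 and strong in set 2. It had 9.62 RPKM in ZFP3ox ABA, 7.93 in wild-type ABA, 4.73 in the ZFP3ox control and 5.45 in wild-type control, but 433, 388, 578 and 2044 reads in set 2. TT1, a zinc finger gene of seed coat pigmentation, had 8.19, 7.03, 5.09 and 3.95 RPKM and 224, 184, 359 and 746 reads in the same order. Both genes were highest in wild-type control in set 2, while in set 1 they were highest in ZFP3ox ABA. Their set 1 values lie near the low end, where the lowest 5% of all features reached 7.31, 5.68, 5.04 and 3.40 RPKM in the same order. TT1 followed that order. The part of this floor in the set 1 values of MYB90 and TT1 was not tested. These 2 genes were chosen after their values were seen.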
